A study of Homo sapiens with 40 samples.

Results

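The intergenic CTCF peaks described here lay outside active chromatin in EndoC-βH3 cells, a human beta-cell line. A peak of the deposited CTCF table belonged to them when it was more than 2 kb from every protein-coding start site, overlapped neither list of enhancers and no H3K27ac peak, and had its centre outside protein-coding genes of GENCODE release 44. By that rule, which used no measured change, 17509 of 51457 CTCF peaks were chosen, 34.0% of the table. EndoC-βH3 cells carry an immortalizing transgene, hTERT and SV40 large T antigen, which a tamoxifen-activated Cre recombinase (CreER) excises. The non-senescent cells were control cells, and the senescent cells had been treated with 4-hydroxytamoxifen for 3 weeks. Both carried the label WT and both were the same line, so the libraries are repeats within 1 line, and the labels do not say whether they came from separate cultures. CTCF was measured in 3 libraries of each state, and the whole series held 40 libraries. The table gives a mean over the CTCF libraries, a log2 fold change of senescent over non-senescent cells and its standard error (SE), but no value per library.

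CTCF is a zinc finger protein that binds a long DNA site and stops the cohesin ring as it extrudes chromatin loops, and loops are anchored mostly where a pair of sites point towards each other. Sites far from genes mark the borders of domains and insulate neighbouring stretches. A CpG within the site can be methylated, and methylation at some positions of the site weakens binding. CTCF also lies in families of repeated genes, such as the immunoglobulin genes and the ribosomal RNA genes, where it has been linked to the folding of the array.

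The tissue was checked on H3K27ac, a mark of active promoters, in the same cells. All 14 beta-cell markers had an H3K27ac peak within 2 kb of a start site, INS, PDX1 and NKX6-1 among them, against 5 of 16 markers of other cell types. The other 5 were APOA1, MYH7, GFAP, CPA1 and KRT19. The direction of the H3K27ac scale was checked on a pair of genes with a known course in senescence. The CTCF changes come from a separate comparison, so these genes do not check the direction of the CTCF scale. It was taken to be senescent over non-senescent cells. H3K27ac at the promoter of MKI67, a proliferation marker, had a log2 fold change of -2.29 (SE 0.14), and at CDKN1A, a cell cycle inhibitor, one of 2.50 (SE 0.16). CTCF signal falls when fewer cells have a site bound and when each cell binds it for less time, and these cannot be told apart.

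Of the 17509 intergenic peaks, 13588 had an adjusted p in the table and 3921 had none and stayed uncalled. The study's thresholds were used to call a change: an adjusted p under 0.2 in the deposited DESeq2 test together with a fold change above 1.5. A peak that was higher in senescent cells is named gained, and one that was lower is named lost. Gained peaks numbered 592 and lost peaks 642, which is 9.08% of the intergenic peaks with an adjusted p, against 7.27% of all CTCF peaks. The gained share was 4.36% against 2.99% over all peaks, and the lost share 4.72% against 4.28%. At an adjusted p under 0.05, 258 were gained and 297 lost, and over all peaks these shares were 1.18% and 1.54%, or 2.72% together. The median log2 fold change of the intergenic peaks was 0.06, with quartiles of -0.28 and 0.30, and that of all CTCF peaks was -0.01. Peaks are not replicates, and no test across peaks was run, so these shares are descriptions.

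**Figure D1:**
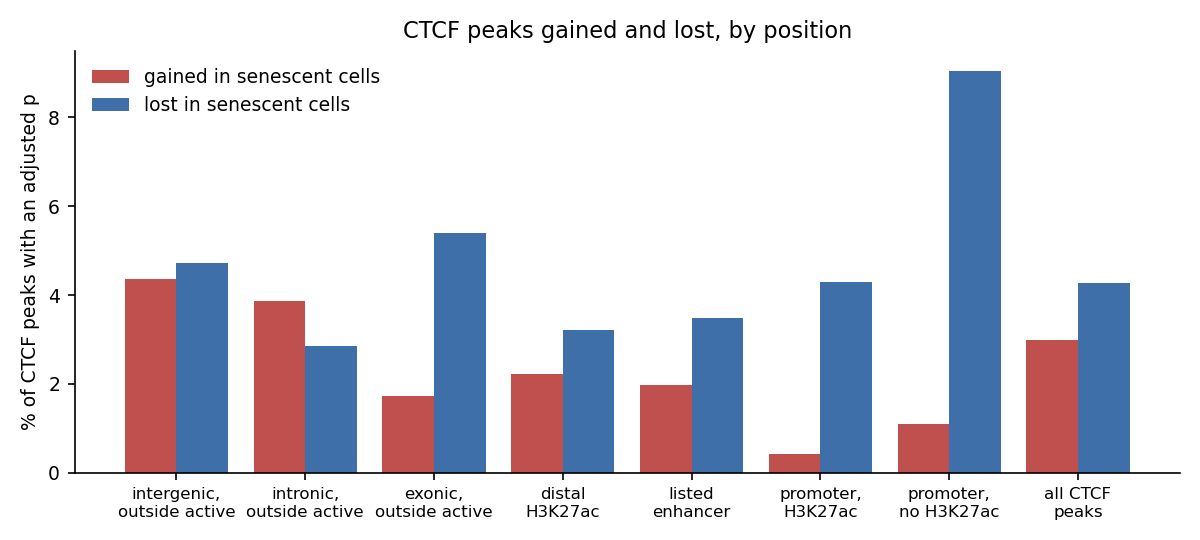
Share of CTCF peaks gained (red) and lost (blue) in senescent cells, as a percent of the peaks with an adjusted p, for each class of position and for all CTCF peaks. In the intergenic class the gained and lost bars are close, at 4.36% and 4.72%, and in both promoter classes the lost bar is the taller one.

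Intronic peaks outside active chromatin had 3.87% gained and 2.85% lost, and promoters with H3K27ac 0.43% gained and 4.28% lost, beside 4.36% and 4.72% of the intergenic peaks. Among the called intergenic peaks, changes were smaller in the gained than in the lost ones. On the log2 scale the gained peaks centred on 0.74 (the median) and reached 1.84 at most. For the lost peaks the median was -1.04 and the lowest value -2.20. Lost peaks were lower in signal, with a median mean of 55.0 against 89.4 for gained peaks. The median SE of intergenic peaks was 0.37 in the second quartile by mean and 0.22 in the third. At a larger SE, a larger change is needed for a call. Whether gained and lost peaks of like mean differ in size of change was not tested. A fold change above 2 was reached by 84 gained and 358 lost peaks, and 139 of these 358 lay in the sets of repeated sequence described further on. Outside those sets 84 gained and 219 lost peaks reached it, and the median of the lost peaks was -0.96. Gained peaks were also wider, with a median of 1124 bp against 651 bp, and lay farther from genes, with a median of 125 kb from the nearest protein-coding start against 72.3 kb for lost and 59.8 kb for uncalled peaks.

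A binding site was looked for in every peak with a 20-base matrix learned from the centres of the 10000 CTCF peaks of highest mean in the other classes. Its consensus, NCCANNAGGNGGCNNNNNNN (N where no base prevails), holds the core of the known CTCF site. At a score reached by 5% of regions shifted by 10 kb, 52.8% of the intergenic peaks held a site on either strand, and 52.6% of all CTCF peaks did. Of intergenic peak regions shifted by 10 kb, 3.85% reached that score. Sites are printed 5′ to 3′ on their own strand, with the 20 bases of the site in capitals and 10 flanking bases on each side. The first set are the best sites of 3 gained peaks among those with the smallest adjusted p that held one. They lie near SPTLC3 (chr20:12966654-12966693, minus strand), EPHA7 (chr6:93721532-93721571, plus strand) and SEC16B (chr1:177913857-177913896, minus strand), all in hg38.
SPTLC3 site: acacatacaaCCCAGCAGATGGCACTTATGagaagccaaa
EPHA7 site: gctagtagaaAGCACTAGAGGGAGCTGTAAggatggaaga
SEC16B site: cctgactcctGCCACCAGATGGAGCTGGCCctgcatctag

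The 4 lost peaks with the smallest adjusted p among those with a site all lay in the ribosomal DNA array of chromosome 21, and the sites came as identical pairs, so only the first of each pair is shown (chr21:8446913-8446952 and chr21:8206174-8206213, both plus strand). Beside them stand sites of lost peaks elsewhere, which were chosen after their values were seen to show sequence outside the ribosomal DNA. These are the sites near SLC31A2 (chr9:113113003-113113042, plus strand) and COPS8 (chr2:237072507-237072546, minus strand), and those of 2 peaks in the immunoglobulin heavy chain locus IGH (chr14:106349170-106349209 and chr14:106234973-106235012, both minus strand). No site of a gained peak above holds the pair cg in its capitals, and every one of these lost sites does. That clean split belongs to the few sites printed. Of all 351 lost peaks with a site, 143 had no CpG in it, and 44 gained peaks had 1.
rDNA site 1: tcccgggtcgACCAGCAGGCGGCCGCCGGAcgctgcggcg
rDNA site 2: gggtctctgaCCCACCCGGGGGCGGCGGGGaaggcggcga
SLC31A2 site: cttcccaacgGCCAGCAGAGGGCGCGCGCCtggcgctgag
COPS8 site: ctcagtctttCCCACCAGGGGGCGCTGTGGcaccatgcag
IGH site 1: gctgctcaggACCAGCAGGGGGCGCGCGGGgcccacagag
IGH site 2: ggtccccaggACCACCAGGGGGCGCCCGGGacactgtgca

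Among the gained peaks with the smallest adjusted p, one 42.3 kb from SPTLC3, a subunit gene of the enzyme that starts sphingolipid synthesis, rose by 1.25 on the log2 scale (SE 0.22, adjusted p = 1.0e-05) at a mean of 102 normalised counts. A peak 302 kb from EPHA7, an ephrin receptor gene, rose by 1.48 (SE 0.26) at a mean of 92.1. The nearest H3K27ac peak was centred 1856 bp from it and had a log2 fold change of 0.79. A further 5 of these peaks were nearest to SEC16B, PHACTR1, SLITRK1, TBC1D4 and ZNF385D, and rose by 0.83 to 1.42 on the log2 scale. TBC1D4 encodes a GTPase-activating protein of insulin-stimulated glucose uptake, and SLITRK1 a neuronal membrane protein. The SLITRK1, TBC1D4 and ZNF385D peaks held no site at the score used. Gained peaks did not pile up: the most in any 1 Mb of the genome was 4.

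Outside the sets of repeated sequence described further on, the lost peak near SLC31A2, a copper transporter gene, fell by 1.10 on the log2 scale (SE 0.14, adjusted p = 1.9e-11) at a mean of 288. The one near COPS8, a COP9 signalosome subunit gene, fell by 1.07 (SE 0.15, adjusted p = 7.6e-10) at a mean of 256.3. Another at chr20:58179017, near C20orf85, fell by 1.27 (SE 0.20), and one near AP3B1, an adaptor complex gene of lysosomal transport, fell by 1.26 (SE 0.22). Other lost peaks of small adjusted p lay far from coding genes and held no site, such as chr21:8806959, which fell by 0.83 (SE 0.13), and chr10:133763110, 137 kb from FRG2B, which fell by 1.13 (SE 0.18). These 6 were chosen after their values were seen, and not every lost peak of like adjusted p is named. No gained or lost peak lay in the 5 landmark loci examined. At the INS, IGF2 and H19 locus the 2 intergenic peaks had log2 fold changes of -0.07 and -0.32, at HOXA the 2 peaks -0.15 and -0.34, and at HOXD the 1 peak -0.29. The beta-globin peak stood at -0.59 (SE 0.32) and the 4 peaks of the clustered protocadherin locus between -1.38 and -0.03. The protocadherin peak at -1.38 (SE 0.87) had a mean of only 6.64, and another had a mean of 7.44. Neither had an adjusted p, so neither could be called.

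Of the 642 lost peaks, 157 lay in 5 sets of repeated, antigen receptor or AT-rich sequence. The sets were drawn up after the values had been seen, so their counts are given with no test. Some human satellite DNA, found mostly near centromeres, is built of diverged tandem copies of a 5-base unit. For this unit, 120 intergenic peaks had at least 20% of their bases in GGAAT or its complement ATTCC, with a median of 53.6% against 0.94% for all intergenic peaks. Of these 120, 105 were lost and 0 gained in the deposited DESeq2 test, with 115 lower and 0 higher at an unadjusted p under 0.05, and none held a CTCF site. Tandem copies share reads, so these peaks are not independent measurements. Among the 95 satellite peaks with a mean of at least 50, the log2 fold changes ran from -1.75 to -1.21 with an SD of 0.10, where the median SE of the 120 single peaks was 0.47. They came from 15 chromosomes, with 30 on chromosome 4 (29 lost, all 30 between positions 49091582 and 49653762), 17 on chromosome 10 (15 lost), 15 on chromosome 1 (15 lost) and 15 on chromosome 20 (14 lost). The middle of the satellite peak with the smallest adjusted p (chr4:49648558-49648637, plus strand) is printed to show this unit, which is in capitals. The full peak had a mean of 181 and fell by 1.57 (SE 0.23).
satellite: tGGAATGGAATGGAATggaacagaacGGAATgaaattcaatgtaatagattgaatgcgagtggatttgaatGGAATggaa

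The ribosomal DNA array held the lost peaks of smallest adjusted p in the whole intergenic class, all 8 of them. Each of its genes encodes the precursor of the large ribosomal RNAs, which is transcribed in the nucleolus. The 24 intergenic peaks within 30 kb of the genes RNA45SN1, RNA45SN2 and RNA45SN3 on chromosome 21 differed by place. The 3 peaks centred just upstream of the start, with means of 4492 to 4814, were among the highest of the class, and fell by 0.99, 1.00 and 1.01. All 3 held rDNA site 2. At the end of the transcribed part and beyond it, between 13.6 and 29.9 kb from the start, the log2 fold changes ran from -1.496 to -1.99. The peaks 8.48 and 8.67 kb upstream of the start fell by 0.65 and 0.72, and the only 2 uncalled peaks, 11.3 and 11.6 kb upstream, had values of 0.14 (SE 0.11) and 0.28 (SE 0.11). Near-identical copies share reads, so the copies are not independent measurements and the true number of copies behind each peak is uncertain. The peaks at the starts of RNA45SN2 and RNA45SN3 also overlapped Rb regions specific to senescent cells, the only 2 of the 24 to do so.

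**Figure D2:**
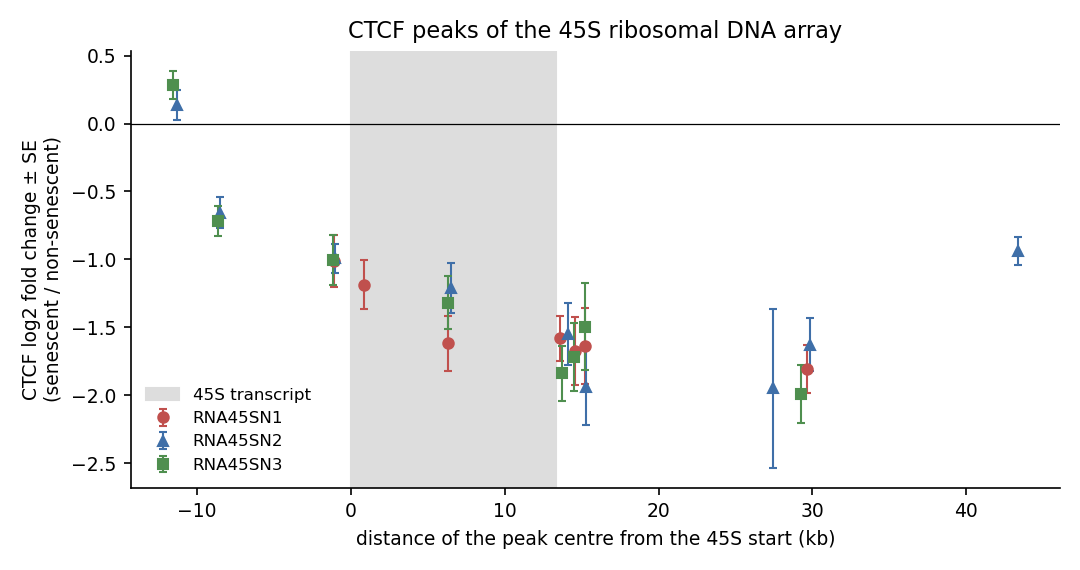
CTCF log2 fold change (senescent over non-senescent, points, with the SE as bars) of the 24 intergenic peaks of the 45S array against the distance in kb from the start of the transcript, 1 symbol for each gene copy and the transcribed part in grey. Values fall from 0.28 and 0.14 at 11.6 and 11.3 kb upstream to about -1 at the start and to between -1.496 and -1.99 from 13.6 to 29.9 kb, and the point at 43.3 kb, at -0.94, carries the same site as the starts.

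The point at 43.3 kb, chr21:8247614-8251027, had a mean of 4122 and fell by 0.94 (SE 0.11). It held rDNA site 2, and no 45S gene was annotated there in the table used. A further lost peak, at chr21:8256179-8256751, lay past the 30 kb limit, shared its best site with 3 of the peaks in the array and fell by 1.44 (SE 0.23).

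Other gene families gave smaller losses. IGH held 55 intergenic peaks, since the annotation does not count immunoglobulin genes as protein-coding, and 47 of them held a CTCF site. Of the 55, 41 had an adjusted p, and of these 18 were lost (43.9%) and 1 was gained (2.44%). Over all intergenic peaks the lost and gained shares were 4.72% and 4.36%. The median log2 fold change of the 55 was -0.75. All 18 lost peaks held a site. The one with the smallest adjusted p, at chr14:106348916-106349484, also had the largest fall of the 18, 1.61 (SE 0.26, adjusted p = 5.3e-07) at a mean of 76.1. The 47 sites comprised 30 different sequences, and near-identical copies share reads, so values of single peaks are uncertain. The other antigen receptor loci stood near 0: IGK had a median of 0.10 and 0 of 36 lost, IGL -0.11 and 1 of 49, the T-cell receptor loci TRA and TRD 0.02 and 0 of 38, TRB -0.04 and 1 of 26, and TRG -0.19 and 0 of 7. In that order, 28, 42, 32, 20 and 6 of these peaks had an adjusted p. IGH thus held 18 of the 20 lost peaks in these loci.

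Transfer RNA genes, which RNA polymerase III transcribes, had 30 intergenic peaks within 500 bp. Of these, 10 were lost and 0 gained by the deposited DESeq2 test, with 12 lower and 1 higher at an unadjusted p under 0.05. A row of 7 of them at chr1:161439866-161470503, in 30.6 kb near FCGR2A, was lost in full, with log2 fold changes between -1.25 and -0.96. Of the 7, 4 shared 1 site. Near-identical copies share reads, so the peaks of the row are not independent measurements. The median GC content of the row was 74.0%, and with the trend of the change with GC content removed, as described further on, 4 of the 7 were lost. Over the 23 peaks elsewhere, 3 were lost and the median was -0.29. In the other classes of position, 67 CTCF peaks lay as near to a tRNA gene, 60 of them with an adjusted p. Of these, 1 was lost (1.67%) and 0 were gained by the deposited DESeq2 test, and the median of the 67 was -0.15. The losses thus lay mostly in the row on chromosome 1 and do not describe tRNA genes in general.
tRNA row site: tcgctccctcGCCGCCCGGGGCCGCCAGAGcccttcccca
This site is shown, from chr1:161462654-161462693 on the plus strand, because it recurs letter for letter along the row.

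**Figure D3:**
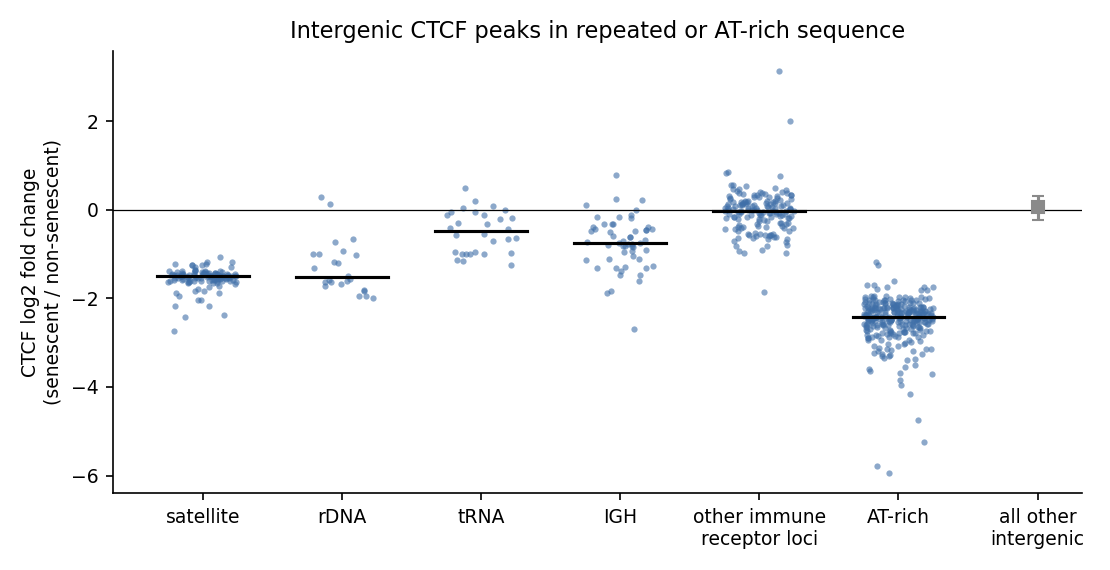
CTCF log2 fold change of each intergenic peak in 6 sets of sequence (points, with the median as a bar) beside the median and quartiles of all other intergenic peaks (grey square). Satellite peaks form a narrow band at -1.499, rDNA peaks centre on -1.52, IGH on -0.75, and AT-rich peaks on -2.43 although none was called.

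The AT-rich set differed in its errors. A GC content of at most 20% was found in 283 intergenic peaks, and none held a CTCF site. Their median log2 fold change was -2.43, lower than in the sets above, and their median SE was 2.05 against 0.29 for all intergenic peaks. None of the 216 with an adjusted p was called in the deposited DESeq2 test, and 6 were lower and 0 higher at an unadjusted p under 0.05. More broadly, 260 intergenic peaks with a mean of at least 50 had an SE above 1. Their log2 fold changes lay between -2.85 and -1.59, 0 of them reached an unadjusted p under 0.05 in the deposited DESeq2 test, and none held a site. The peak of highest mean in the class was among them, at chr3:144799021-144799634 with a mean of 29669 and a log2 fold change of -2.20 (SE 1.77, adjusted p = 0.51). Its middle (chr3:144799298-144799357, plus strand) shows the sequence.
AT-rich: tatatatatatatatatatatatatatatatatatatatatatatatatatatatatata
The table gives no value per library, so how each library contributed to these means was not tested. Among the other classes, 139 peaks had a mean of at least 50 and an SE above 1, with a median of -2.32.

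Without the satellite, rDNA, tRNA, antigen receptor and AT-rich sets, 16843 intergenic peaks were left, with 591 gained and 485 lost and a median log2 fold change of 0.07. The sets thus held 157 of the 642 lost peaks and 1 of the 592 gained ones, and the order of the counts turned round. Since the sets were drawn up after the values had been seen, that turn follows from their choice and is no separate result. With the trend with GC content removed, 339 gained and 340 lost peaks were counted outside the sets. Of those 339, 123 lay in the lowest GC decile, where the subtraction is unreliable, as described further on. Lost peaks outside the sets lay a median of 38.8 kb from the nearest coding start, and 63.7% of them held a site. Peaks outside the sets are not free of repeated sequence, which was searched for only by the rules of the sets. The lost peak at chr21:8256179-8256751, which shares a site with the array, was counted among them. The input libraries are not part of the table, so whether the background over these sequences differed between the states was not tested.

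Gained and lost peaks differed in base composition. The median GC content was 38.7% in gained peaks and 48.1% in lost peaks, or 49.5% in those outside the sets. In deciles of the intergenic peaks by GC content, the lowest had 127 gained and 6 lost peaks and a median log2 fold change of 0.19. The second lowest had 138 gained and 30 lost and a median of 0.25, and the highest had 10 gained and 172 lost and a median of -0.23. Spearman's rho between GC content and log2 fold change was -0.25 over 17509 peaks, and Pearson's r was 0.09, and without the 5 sets rho was -0.32 and r -0.16 (16843 peaks). The points share their libraries, and rho is a description. The peaks of the other classes, put into the same GC ranges, had medians of 0.22, 0.21 and -0.23 in these 3. The GC content of the surrounding 100 kb gave a rho of -0.23, and it was itself related to that of the peak, with a rho of 0.66.

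**Figure D4:**
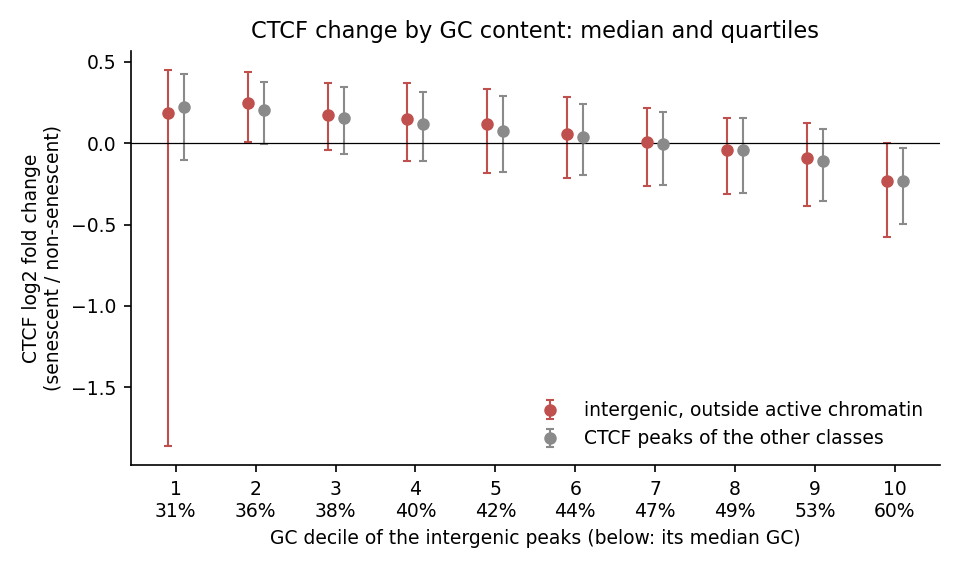
Median and quartiles of the CTCF log2 fold change in deciles of the intergenic peaks by GC content (red), and of CTCF peaks of the other classes in the same ranges (grey). Both fall with GC content, the intergenic medians from 0.25 in the second decile to -0.23 in the last, and the lowest decile holds the AT-rich peaks.

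When the trend with GC content over all CTCF peaks was subtracted before the test, 339 intergenic peaks were gained and 486 lost, and 244 of the 592 gained and 446 of the 642 lost peaks kept their call. Over all peaks, 1.85% were then gained and 2.36% lost, 4.21% together. The median of the intergenic peaks was then 0.01. By this test 104 of the 120 satellite peaks, 21 of the 24 rDNA peaks, 12 of the 55 IGH peaks and 6 of the 30 tRNA peaks were lost. In the lowest GC decile 123 peaks were gained and in the second 26, where 127 and 138 were gained before the subtraction. At the lowest GC contents the subtracted trend was negative: the AT-rich peak at chr3:144799021 moved from -2.20 to -0.11. Values there were thus raised, so the 339 gained peaks, which include these 123, are not a count free of GC content. How many of the 123 arose in this way was not tested.

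The CpG content of the site itself followed the direction of the call. Of the 9241 intergenic peaks with a site, 5562 had no CpG within its 20 bases, and of these 225 were gained and 143 lost. With 1 CpG, 44 were gained and 103 lost of 2598 peaks, and with 2 or more CpG, 3 were gained and 105 lost of 1081. The medians were 0.12, -0.02 and -0.14. Outside the 5 sets, the peaks with 2 or more CpG had 3 gained and 78 lost. GC content of the whole peak moved with this count, from a median of 43.6% with no CpG to 54.25% with 2 or more. With the GC trend removed the counts were 142 gained and 108 lost with no CpG, and 7 gained and 62 lost with 2 or more. These GC-removed counts still include the 5 sets, where near-identical copies share reads. By the same test all peaks with a site had 176 gained and 236 lost, and those outside the sets 176 and 200. DNA methylation was not analysed here.

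**Figure D5:**
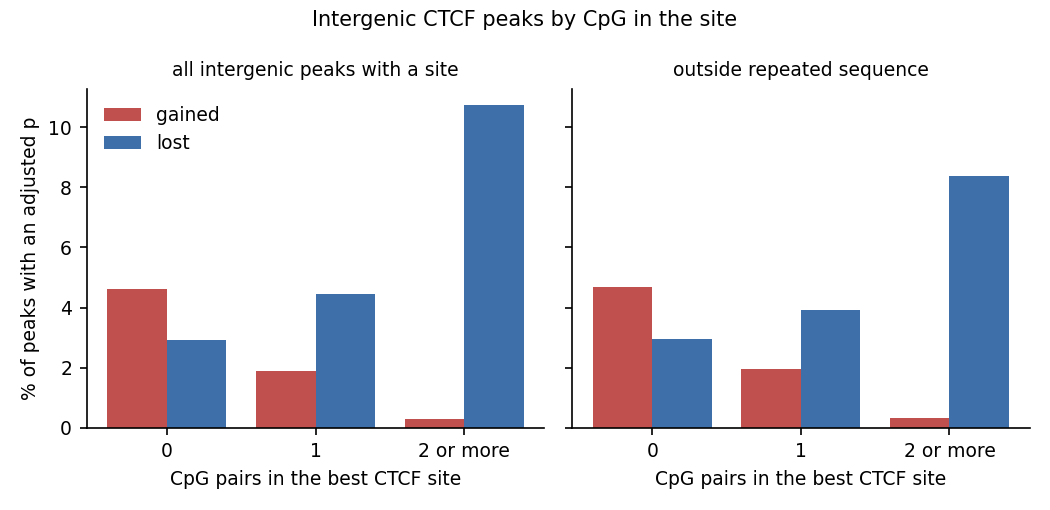
Share of intergenic CTCF peaks with a site that were gained (red) or lost (blue), as a percent of those with an adjusted p, by the number of CpG pairs in the best site, for all such peaks and for those outside repeated and AT-rich sequence. The lost share rises and the gained share falls from 0 to 2 or more CpG in both panels.

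Peaks with a site were higher than those without, with a median mean of 120 against 31.1 normalised counts, and had smaller errors, with a median SE of 0.21 against 0.42. Of those with an adjusted p, 3.33% were gained and 4.30% lost with a site, and 5.90% and 5.36% without one. In gained peaks with a site the median score was 15.6 bits, in lost ones 17.5 and in uncalled ones 16.8. Calls depended on the mean count. In the lowest quartile by mean, 3 were gained and 22 lost, in the second 175 and 345, in the third 376 and 181, and in the highest 38 and 94. Only 457 peaks of the lowest quartile had an adjusted p. Among neighbouring intergenic peaks that both held a site within 1 Mb of each other, 1167 pairs pointed towards each other, 1246 away and 2696 the same way. The convergent pairs were the farthest apart, with a median of 90.4 kb against 48.1 and 52.9 kb.

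Position relative to active chromatin was followed through the nearest H3K27ac peak. The 3808 intergenic peaks with an H3K27ac centre within 10 kb had 128 gained and 68 lost. These were 4.36% and 2.32% of those with an adjusted p, beside 4.36% and 4.72% of all intergenic peaks. The 1495 peaks over 250 kb away had 59 gained (5.41%) and 183 lost (16.8%). Without the 5 sets the last group had 59 gained (6.42%) and 71 lost (7.73%). The direction of the change was weakly related to that of H3K27ac: rho was 0.06 over 13594 peaks within 100 kb, which share their libraries with one another, and 0.16 over the 793 of them that were called. Where the nearest H3K27ac peak within 100 kb was gained (adjusted p under 0.05 and fold change above 1.5), 67 CTCF peaks were gained and 24 lost of 1389. Where it was lost, 59 were gained and 67 lost of 2241. Beside these, the 13594 intergenic peaks within 100 kb of an H3K27ac peak had 451 gained and 342 lost. All 51457 CTCF peaks had 1180 gained and 1690 lost. These last totals include peaks with no adjusted p, which could not be called. Neighbouring intergenic peaks outside the 5 sets had a rho of 0.16 within 5 kb (1608 pairs), 0.22 at 5 to 10 kb (1114 pairs) and 0.08 at more than 100 kb (7093 pairs).

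Shares here are of peaks with an adjusted p, beside 4.36% gained and 4.72% lost of all intergenic peaks. The centre lay in a long non-coding RNA gene for 4599 peaks, with 159 gained (4.55%) and 138 lost (3.95%). It lay in a pseudogene for 703, with 10 gained (1.88%) and 36 lost (6.77%). The 12410 peaks in no annotated gene of any type had 426 gained (4.38%) and 477 lost (4.91%), close to the shares of the class. By chromosome, the balance was most one-sided on chromosome 19, with 2 gained and 50 lost and a median of -0.18. Chromosome 3 had 52 gained (6.82%) and 12 lost (1.57%), and chromosome 13 had 42 gained (9.72%) and 8 lost (1.85%). Chromosome 19 peaks had a median GC content of 49.5%, and those of chromosomes 3 and 13 of 41.4% and 40.0%. With the GC trend removed, chromosome 19 had 3 gained and 38 lost.

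Each intergenic peak was assigned to the nearest protein-coding start, which does not show that it acts on that gene. The counts of each list stand beside 4.36% gained and 4.72% lost of all intergenic peaks with an adjusted p. Beta-cell transcription factors were nearest to 64 peaks, 52 of them with an adjusted p, of which 1 was gained (1.92%) and 2 were lost (3.85%). Both lost peaks were nearest to FOXA2, a factor of endoderm and islet development, at 150 and 404 kb, and had log2 fold changes of -1.14 (SE 0.37) and -1.15 (SE 0.40). The gained peak, nearest to ETV1, rose by 0.64 (SE 0.22). With the GC trend removed it was not called (adjusted p = 0.33 by a normal test, adjusted over the CTCF peaks with a deposited adjusted p). Genes of insulin secretion and its granules were nearest to 34 peaks, 23 of them with an adjusted p, with 3 gained (13.0%) and 0 lost by the deposited DESeq2 test, and 9 higher and 1 lower at an unadjusted p under 0.05. A pair of them, 119 and 512 kb from SYT4, a synaptotagmin gene of secretory vesicles, rose by 0.62 (SE 0.18) and 0.63 (SE 0.19), and the third, nearest to ADRA2A, an adrenergic receptor that restrains insulin release, rose by 0.70 (SE 0.23). The secretion peaks had a low median GC content, 37.9%.

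Cell cycle genes were nearest to 28 peaks, 23 of them with an adjusted p, with 2 gained (8.70%). The peak nearest to E2F7, a repressor of cell cycle genes, rose by 1.36 (SE 0.29, adjusted p = 0.00099), and that nearest to MKI67, at 508 kb, by 0.72 (SE 0.27). None of 14 peaks, 10 of them with an adjusted p, nearest to p53 targets and cyclin-dependent kinase inhibitors was called by the deposited DESeq2 test, with 1 higher and 2 lower at an unadjusted p under 0.05, and the list's median was -0.05. Of 24 peaks nearest to interferon-stimulated genes, 22 of them with an adjusted p, 1 was lost (4.55%), near HLA-E, an MHC class I gene, where it fell by 0.86 (SE 0.29). Of 39 peaks nearest to secretory senescence factors, 25 of them with an adjusted p, 3 were gained (12%), nearest to IGFBP3, CXCL3 and HGF, with log2 fold changes of 0.67, 0.70 and 0.71, and 1 was lost (4.00%), near the cytokine gene LIF, where it fell by 0.66 (SE 0.22). With the GC trend removed, 1 was gained and 3 were lost among the beta-cell factor peaks, 1 and 0 among the cell cycle peaks, 0 and 3 among the interferon-stimulated gene peaks, and 0 and 0 among the secretion, p53 and secretory factor peaks. The median log2 fold changes were 0.01 for the beta-cell factors, 0.28 for the secretion genes, 0.15 for the cell cycle genes, -0.02 for the interferon-stimulated genes and 0.23 for the secretory factors, beside 0.06 for all intergenic peaks.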

How the data were processed

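By the methods of the study, reads were trimmed by the authors (Trim Galore), mapped to hg38 (Bowtie2) and used to call CTCF peaks with MACS2 against matched input. Duplicate removal is described for other marks but not for CTCF. The methods also give a filter for peaks with a CTCF motif, and the table used here still held peaks in which no site was found by the matrix of this work. Tool versions and the joining of replicates into 1 peak list are not given in the sources used here. The authors then ran DESeq2 on read counts in peaks, senescent against non-senescent, and the deposited CTCF and H3K27ac tables hold only its output. The mean signal, as deposited, is the mean over libraries of counts divided by size factors. The deposited log2 fold change, its standard error, the deposited p-value and the adjusted p-value come from the authors' own comparison. They were used here because the tables hold no count per library, and no model was refitted. The enhancer and Rb lists were deposited as positions only.

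Depth per library is therefore unknown. The means of all CTCF peaks sum to 6136420 counts, of which 34.3% lay in the intergenic peaks. Scaling by size factors centres the table, so a change common to all peaks would not appear. P-values measure only the spread between 3 and 3 libraries.

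Classes, distances, GC content and sites were computed on hg38 with Python 3.11.15, numpy 2.4.6, pandas 2.3.3, scipy 1.17.1 and pysam 0.24.0. A site scored at least 13.3 bits. The GC trend was the median log2 fold change in 50 bins of equal size over all CTCF peaks, interpolated, and after its subtraction a normal test with the deposited SE was used. The scripts were tested on simulated data. The text names the 8 gained and 8 lost peaks of smallest adjusted p, the 4 of highest mean, called peaks nearest to list genes (at most 4 a list), landmark loci and, where stated, peaks chosen after their values were seen. One peak that this rule chose is not reported here. The 45S and tRNA genes came from RefSeq (GRCh38.p14). The intergenic peaks, gene lists and sets were chosen with earlier results of these data known. Alternatives covered thresholds, low counts, GC content and the limits of the class.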

Additional observations from a re-analysis of the deposited data

How the results depend on the processing

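Of 41 alternatives over the 6 main values, 23 stayed close to the value reported. Close meant within 1.5 times for counts and rho, and within 95% intervals taken over peaks for the median and the site share. Peaks are not replicates, so these intervals served only as a yardstick and do not measure the spread between libraries. No value changed sign. Gained and lost peaks numbered 258 and 297 at an adjusted p under 0.05, 84 and 358 at a fold change above 2, and 272 and 351 among peaks with a site. Tested against a fold change of 1.5 with a normal test on the deposited SE, 0 gained and 12 lost peaks remained at an adjusted p under 0.2, with 30 gained and 207 lost at an unadjusted p under 0.05. Of those 12, 10 lay in rDNA, 1 in satellite and 1 in IGH. A mean of at least 50 counts left 485 gained and 348 lost peaks, so that gained peaks outnumbered lost ones, raised the median log2 fold change from 0.056 to 0.11, the site share from 52.8% to 67.0%, and moved rho with GC content from -0.25 to -0.40. With the GC trend removed, 339 peaks were gained and 486 lost, and the median was 0.010. The median was 0.046 among peaks with a site. Without the 5 sequence sets, an alternative chosen after seeing the data, the median was 0.071 and the site share 53.8%. At the stricter score, reached by 1% of shifted regions, the site share was 31.1%. The cause of these moves was not tested, beyond the smaller number of peaks that each setting leaves. The limits of 5 kb around start sites and active chromatin, the exclusion of genes of every type, and the adjustment over all peaks moved no count by over 1.5 times. No paired analysis was possible because the tables hold no value per library, and for the same reason no replicate could be left out. Peaks with low means, 3921 of them without an adjusted p, limit what could be called.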

Other observations

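Olfactory receptor genes, which stand in large clusters, were the nearest coding genes to 200 intergenic peaks. Of the 168 with an adjusted p, 3 were gained (1.79%) and 17 lost (10.1%), beside 4.36% and 4.72% of all intergenic peaks and 2.99% and 4.28% of all CTCF peaks. Outside the 5 sequence sets there were 3 gained and 16 lost of 171, with a median GC content of 42.9%, and with the GC trend removed 2 and 13. Zinc finger genes with a ZNF symbol were nearest to 319 peaks, 246 of them with an adjusted p, with 5 gained (2.03%) and 36 lost (14.6%), and with the GC trend removed 3 and 29. Outside the 5 sets they were nearest to 281 peaks with 5 gained and 20 lost, and with the GC trend removed 3 and 12. Of the 58 such peaks on chromosome 19, where these genes cluster, 0 were gained and 4 lost in the deposited DESeq2 test (3 higher and 10 lower at an unadjusted p under 0.05), with a median of -0.36, against 5 and 32 of 261 on other chromosomes. HOX genes were nearest to 5 peaks, and the only call was a loss of 0.70 on the log2 scale 38.1 kb from HOXB1 (SE 0.22), which was not called with the GC trend removed. Keratin genes were nearest to 20 peaks, of which 1 was lost and 0 gained, and 0 were called with the GC trend removed (in the deposited DESeq2 test, 2 were lower and 0 higher at an unadjusted p under 0.05), and clustered protocadherin genes to 2, neither of them called.

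Rb regions specific to senescent cells overlapped 29 intergenic peaks, 21 of them with an adjusted p. Of these 21, 1 was gained (4.76%) and 5 were lost (23.8%), beside 4.36% and 4.72% of all intergenic peaks. The lost ones were the peaks at the starts of RNA45SN2 and RNA45SN3 and others on chromosome Y, so they lay in few places. Of the 29, 6 were AT-rich, 2 satellite and 2 rDNA. Near the limits of the class, the 134 intergenic peaks with a centre within 3 kb of a coding start had a median of -0.14, and the 1588 promoter peaks without H3K27ac centred 1 to 3 kb from a start had one of -0.05.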
